A study of Mus musculus with 212 samples.

Results

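Skin fibroblasts lacking the clock gene Bmal1 were compared with WT fibroblasts at 37 °C, over 24 Bmal1KO and 24 WT libraries. These are 48 of the 212 RNA-seq libraries of the series, chosen by their column labels for genotype and for 37 °C. Each genotype was sampled every 2 h from CT0 to CT46, with 1 library per time point, and libraries of equal CT label were set against each other. The Bmal1KO group holds Bmal1-/- cells and the WT group cells without that deletion, both C57BL/6 mouse skin fibroblasts grown to confluence. Both groups had received 100 nM dexamethasone, a glucocorticoid that sets the phase of cultured cells, for 15 min, and both were then kept at 37 °C in HEPES-buffered medium in constant darkness. The first harvest was 48 h after dexamethasone, and each genotype gave 3 wells of RNA at a time point. The sources used here do not give how many cell preparations stand behind each genotype, which part of the gene was deleted or whether wells were pooled. Genotype and cell preparation therefore cannot be told apart, and the p-values measure the spread over time-point libraries, not over cultures or animals. The other 8 courses of the series, at 27 °C, at 32 °C and in the courses named AM and PM, appear only where the 37 °C difference is set against theirs. By its title, the series asks whether daily rhythms persist without Bmal1.

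BMAL1, encoded by Arntl, pairs with CLOCK or its relative NPAS2 and binds E-box sequences to switch on the Per, Cry, Nr1d1 and Nr1d2 genes and the output gene Dbp. PER and CRY proteins feed back on that pair, and the REV-ERB receptors made from Nr1d1 and Nr1d2 repress Arntl itself, also in fibroblasts, which hold clocks of their own. A mouse lacking BMAL1 loses behavioural rhythm in constant darkness.

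Levels are in FPKM, which divides the fragments of a gene by transcript length and by library size. A difference is Bmal1KO minus WT on the log2(FPKM + 1) scale unless stated otherwise, which understates the change of transcripts near 0. A gene listed at 0 is not read as absent, since mt-Atp8, a gene of the mitochondrial genome, was listed at 0 in all 24 libraries of each genotype, mt-Nd3 in 24 Bmal1KO and 23 WT libraries and mt-Co2 in 8 Bmal1KO and 7 WT libraries. A call of higher or lower in Bmal1KO needed both a 2-fold difference and a limma adjusted p under 0.05, and an SD is over the 24 libraries of a genotype. Estimated depth was 18.67 to 30.4 M reads in Bmal1KO and 16.85 to 32.35 M reads in WT libraries. Between 12232 and 12488 genes exceeded 1 FPKM in Bmal1KO libraries and between 12481 and 12692 in WT libraries. The 6 libraries Bmal1KO CT8, CT16, CT18, CT20 and CT22 and WT CT24 deviated from their group by over 0.16 log2 units per gene on average. In those 5 Bmal1KO libraries long transcripts read low, for example Hspg2 at 24.76 to 41.76 FPKM, against 64.91 to 96.24 FPKM in the other 19, and their part in the results was not tested beyond leaving those time points out.

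Of 12766 genes tested, 815 were higher in Bmal1KO (6.38%) and 1021 lower (8%), so that 1836 were called (14.4%). An adjusted p under 0.05 alone was reached by 10791 genes (84.5%), so it was the 2-fold limit that set most calls. For 785 of the 815 higher genes and 999 of the 1021 lower genes the difference had the same sign at all 24 time points. The 24 Bmal1KO and the 24 WT libraries did not overlap at all for 3877 genes (30.4%), including 748 of those called higher and 942 of those called lower. List members averaging under 1 FPKM were not tested and are not counted. At least 8-fold differences numbered 61 higher and 123 lower, and at least 32-fold ones 10 higher and 21 lower. The median difference over all genes tested was -0.01.

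The difference was not spread evenly over the chromosomes. On chromosome 14 the median difference was 0.64 over 401 genes, 85.8% of them were positive, and 91 were called higher against 10 lower. Chromosome 13 had a median of -0.50 over 438 genes, chromosome 5 one of -0.46 over 851 genes, and chromosome 3 one of -0.43 over 669 genes. On chromosome 13, 67 genes were lower and 8 higher, on chromosome 5, 117 lower and 27 higher, and on chromosome 3, 101 lower and 33 higher. Medians of the other chromosomes lay between -0.17 (chromosome 17) and 0.22 (chromosome 10).

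These 4 chromosome medians kept their side at each time point. Across the 24 time points the median ran from 0.58 to 0.69 on chromosome 14, from -0.53 to -0.46 on chromosome 13, from -0.52 to -0.42 on chromosome 5 and from -0.46 to -0.40 on chromosome 3. The other courses gave like values, with chromosome 14 at 0.65 at 27 °C, 0.64 at 32 °C, 0.60 in AM and 0.58 in PM, and chromosome 13 at -0.51 at 27 °C, -0.49 at 32 °C, -0.50 in AM and -0.45 in PM. In stretches of 20 Mb, the chromosome 14 median was never under 0.34 and the chromosome 5 median never above -0.25. DNA copies were not measured in these files. When each chromosome's median was taken off, an alternative added after seeing the data, 1691 genes were called, and 1498 of the 1836 calls remained with the same sign. Many, but not all, genes named from these 4 chromosomes are given with their chromosome. The part of the shifts in their results was not tested beyond taking off the medians.

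**Figure D1:**
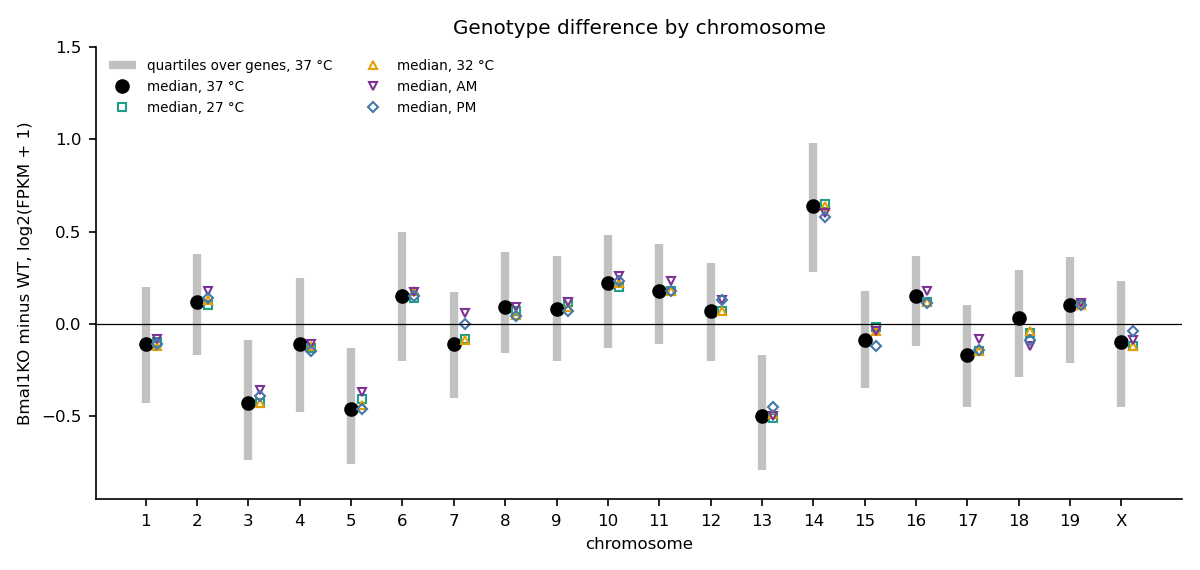
Difference between Bmal1KO and WT per chromosome. Black dots are medians over the genes tested at 37 °C on the log2(FPKM + 1) scale, grey bars span the quartiles over genes, and open symbols are medians in the other 4 pairs of courses. Chromosome 14 lies at 0.64 and chromosomes 3, 5 and 13 between -0.50 and -0.43, with the open symbols close to the 37 °C medians.

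Arntl itself (ENSMUSG00000055116, chromosome 7, 113207465 to 113314126, plus strand, GRCm38) was read at a similar mean level in both genotypes, 5.79 ± 0.53 FPKM in Bmal1KO and 6.14 ± 1.57 FPKM in WT. It ranged over 4.52 to 6.65 FPKM (median 5.98) in Bmal1KO and 3.59 to 8.39 FPKM (median 6.33) in WT, a span in Bmal1KO that lies within that of WT. The mean difference was -0.04 ± 0.07 (SE) (limma adjusted p = 0.61). As the deleted part is not given, this level does not check the labels. Of 48 genes tested within 5 Mb of Arntl, 2 were higher and 6 lower in Bmal1KO, or 16.7%, against 14.4% of all genes.

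Arntl2, which encodes a close relative of BMAL1, was higher in Bmal1KO, with 4.8 to 13.2 FPKM (median 8.31) in Bmal1KO and 1.56 to 5.25 FPKM (median 2.87) in WT. The difference of 1.17 ± 0.08 (SE) came with overlapping groups but held at 24 of 24 time points. Npas2 stood at 3.09 ± 0.394 FPKM in Bmal1KO and 1.5 ± 0.477 FPKM in WT. Clock, on chromosome 5, stood at 4.78 ± 0.935 FPKM in Bmal1KO and 9.16 ± 0.978 FPKM in WT. Neither passed the 2-fold limit, with differences of 0.73 for Npas2 and -0.83 for Clock, although the groups overlapped for neither.

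The repressors did not move together. Cry1 (chromosome 10, 85131700 to 85185064, minus strand, GRCm38), a cryptochrome that blocks CLOCK and BMAL1, ranged over 18.6 to 21.5 FPKM (median 19.9) in Bmal1KO and 2.91 to 6.14 FPKM (median 4.59) in WT. Every Bmal1KO library was above every WT library, and the difference was 1.92 ± 0.05 (SE) (limma adjusted p = 1.62e-23). Cry2, the second cryptochrome, was also higher, at 13.1 ± 0.519 FPKM in Bmal1KO and 5.94 ± 0.465 FPKM in WT (difference 1.02). Per3 was lower instead, at 0.539 to 1.66 FPKM (median 1.09) in Bmal1KO and 3.46 to 9.63 FPKM (median 5.52) in WT, again without overlap, and differed by -1.74 ± 0.06 (SE). Per1 averaged 15.8 ± 2.08 FPKM in Bmal1KO and 13.2 ± 1.07 FPKM in WT and Per2 2.98 ± 0.729 FPKM in Bmal1KO and 1.66 ± 0.493 FPKM in WT, with differences of 0.23 and 0.58 that did not reach 2-fold. Taking off the chromosome medians left Cry1 called and ended the call of Cry2.

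Both REV-ERB receptors were lower in Bmal1KO, and so were 2 of the 4 genes of the group formed by the PAR bZIP factors, which bind D-box sequences, and Nfil3. Nr1d1 (chromosome 11, 98767932 to 98775333, minus strand, GRCm38) ranged over 3.32 to 5.42 FPKM (median 4.37) in Bmal1KO and 7.62 to 29.2 FPKM (median 13.9) in WT and differed by -1.59 ± 0.11 (SE). Nr1d2 ranged over 0.429 to 1.13 FPKM (median 0.74) in Bmal1KO and 4.44 to 10.9 FPKM (median 8.07) in WT and differed by -2.35 ± 0.06 (SE), on chromosome 14, where the median gene was higher in Bmal1KO. No library of one genotype reached the levels of the other for either receptor. Rora, an activator that competes with them, averaged 6.91 ± 0.948 FPKM in Bmal1KO and 6.89 ± 0.689 FPKM in WT.

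Dbp, the first PAR bZIP output, ranged over 5.76 to 11.1 FPKM (median 8.11) in Bmal1KO and 11.5 to 40.2 FPKM (median 18.4) in WT (difference -1.25). Hlf, another, ranged over 0.304 to 3.2 FPKM (median 0.571) in Bmal1KO and 8.66 to 28 FPKM (median 13.8) in WT (difference -2.98 ± 0.14 (SE)), the largest difference among the clock genes. In Bmal1KO its level was between 2.27 and 3.20 FPKM at CT10, CT12, CT18, CT38 and CT40 and at most 1.38 FPKM at the other 19 time points. Tef, the third member, was not called, with 60.6 ± 7.76 FPKM in Bmal1KO and 49.2 ± 12.7 FPKM in WT. Nfil3, which opposes the PAR bZIP factors and lies on chromosome 13, was not called either, with 18.2 ± 1.59 FPKM in Bmal1KO and 24.7 ± 3.0 FPKM in WT.

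Of the enzymes that mark or free clock proteins, 2 of 10 were higher and 0 lower, or 20% against 14.4% of all genes. With the chromosome medians taken off, 1 was higher and 0 lower. Usp2, a deubiquitinase, stood at 7.35 ± 1.66 FPKM in Bmal1KO and 2.68 ± 0.756 FPKM in WT (difference 1.19). Csnk1d and Csnk1e, the casein kinases that phosphorylate PER, differed by 0.33 and -0.20, and neither was called. Bhlhe40, an E-box repressor, averaged 34.2 ± 4.57 FPKM in Bmal1KO and 21.2 ± 3.82 FPKM in WT and was not called either.

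The promoters of 4 of the clock genes that hold a clock motif are shown here, from RefSeq on GRCm38.p6, each from 250 bases before to 50 bases after the gene start. Capitals mark matches to CACGTG (E-box), CACGTT (a related E-box form), TTATGTAA (D-box) or TAGGTCA (core of the element bound by ROR and REV-ERB), searched on both strands, so that a match may read as the reverse complement. The windows are Cry1 at chr10:85185005-85185304 (minus strand), Nr1d1 at chr11:98775328-98775627 (minus strand), Per1 at chr11:69098699-69098998 (plus strand) and Per3 at chr4:151044616-151044915 (minus strand).
Cry1: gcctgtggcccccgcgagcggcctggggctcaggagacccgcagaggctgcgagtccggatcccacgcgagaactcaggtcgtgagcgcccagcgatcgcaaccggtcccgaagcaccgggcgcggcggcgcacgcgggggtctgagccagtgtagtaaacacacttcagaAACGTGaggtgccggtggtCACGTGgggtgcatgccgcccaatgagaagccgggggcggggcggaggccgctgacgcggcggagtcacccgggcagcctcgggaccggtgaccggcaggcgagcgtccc
Nr1d1: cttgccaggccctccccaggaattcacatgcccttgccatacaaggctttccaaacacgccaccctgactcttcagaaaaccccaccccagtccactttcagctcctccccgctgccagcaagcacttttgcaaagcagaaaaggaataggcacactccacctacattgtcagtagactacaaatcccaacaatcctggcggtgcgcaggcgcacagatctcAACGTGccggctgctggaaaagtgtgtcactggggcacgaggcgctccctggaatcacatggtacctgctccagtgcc
Per1: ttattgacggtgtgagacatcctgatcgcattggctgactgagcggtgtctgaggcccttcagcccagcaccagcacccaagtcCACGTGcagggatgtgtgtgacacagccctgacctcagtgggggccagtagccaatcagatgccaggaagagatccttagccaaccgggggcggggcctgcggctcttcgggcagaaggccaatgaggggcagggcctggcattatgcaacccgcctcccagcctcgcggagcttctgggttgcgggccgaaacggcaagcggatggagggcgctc
Per3: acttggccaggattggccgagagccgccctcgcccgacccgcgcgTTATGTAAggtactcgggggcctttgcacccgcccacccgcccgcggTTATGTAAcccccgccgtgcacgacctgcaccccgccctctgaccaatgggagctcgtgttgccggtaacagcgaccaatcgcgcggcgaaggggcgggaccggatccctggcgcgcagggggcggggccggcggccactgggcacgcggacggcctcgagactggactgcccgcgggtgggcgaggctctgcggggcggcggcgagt

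Counted from the gene start, the Cry1 window held an E-box at -60 and a CACGTT match at -79, the Per1 window an E-box at -166, the Nr1d1 window a CACGTT match at -28, and the Per3 window 2 D-boxes at -205 and -158. Cry1 was higher, Nr1d1 and Per3 were lower and Per1 was not called in Bmal1KO, so genes with an E-box form in this window were found in each class. A second Per1 window, not shown, held none of the 4 motifs. A window was matched for 25 of 31 clock genes, and those of Dbp, Hlf, Nr1d2, Clock, Npas2 and Usp2 held none of the 4 motifs in these 300 bases. Arntl, Bhlhe41, Ciart, Cry2, Nfil3, Rorb and Tef, not shown, also held a match in a window. Among all 32851 windows, 7.2% held CACGTG, 4.7% CACGTT, 0.9% TTATGTAA and 2.6% TAGGTCA. By gene, CACGTG was found for 11.5% of those called higher (61 of 531), 10.0% of those called lower (72 of 720) and 12.3% of those not called. A match describes the letters of the window and not binding.

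The time courses of these genes also differed in shape. A 24 h cosine in the difference between genotypes passed for 24 of 12766 genes (0.188%), 8 of them clock genes. In Dbp the cosine had an amplitude, from mid-level to peak, of 0.11 log2 units in Bmal1KO and 0.70 in WT, where it peaked at CT2.14, and that of the difference was 0.77. Nr1d1 had 0.06 in Bmal1KO and 0.68 in WT, where it peaked at CT23.1. Arntl had 0.06 in Bmal1KO and 0.42 in WT, with a peak at CT14.6 in WT, so like mean levels went with a flatter course in Bmal1KO than in WT. Cry1 had 0.02 in Bmal1KO and 0.30 in WT. Npas2 had 0.08 in Bmal1KO and 0.38 in WT, Nr1d2 0.04 in Bmal1KO and 0.33 in WT, Per3 0.11 in Bmal1KO and 0.44 in WT, and Tef 0.10 in Bmal1KO and 0.38 in WT. The call of Tef held in 5 of the 24 fits that leave out 1 time point, while those of the other 7 clock genes held in all 24. Without the 6 time points of the libraries that stand apart, Npas2, Nr1d2, Per3 and Tef were not called.

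Outside the clock lists 16 genes passed. Ppp1r14c, an inhibitor of protein phosphatase 1 (amplitude of the difference 0.60), and Trmt13, a tRNA methyltransferase (0.47), kept their calls without these 6 time points, as did Arntl, Cry1, Dbp and Nr1d1 (Ppp1r14c and Trmt13 were chosen for naming after their values were seen). Without those time points 9 genes were called, 6 of them among the 24. Leaving out a single time point gave between 10 calls (CT20) and 609 calls (CT8, one of the libraries that stand apart).

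**Figure D2:**
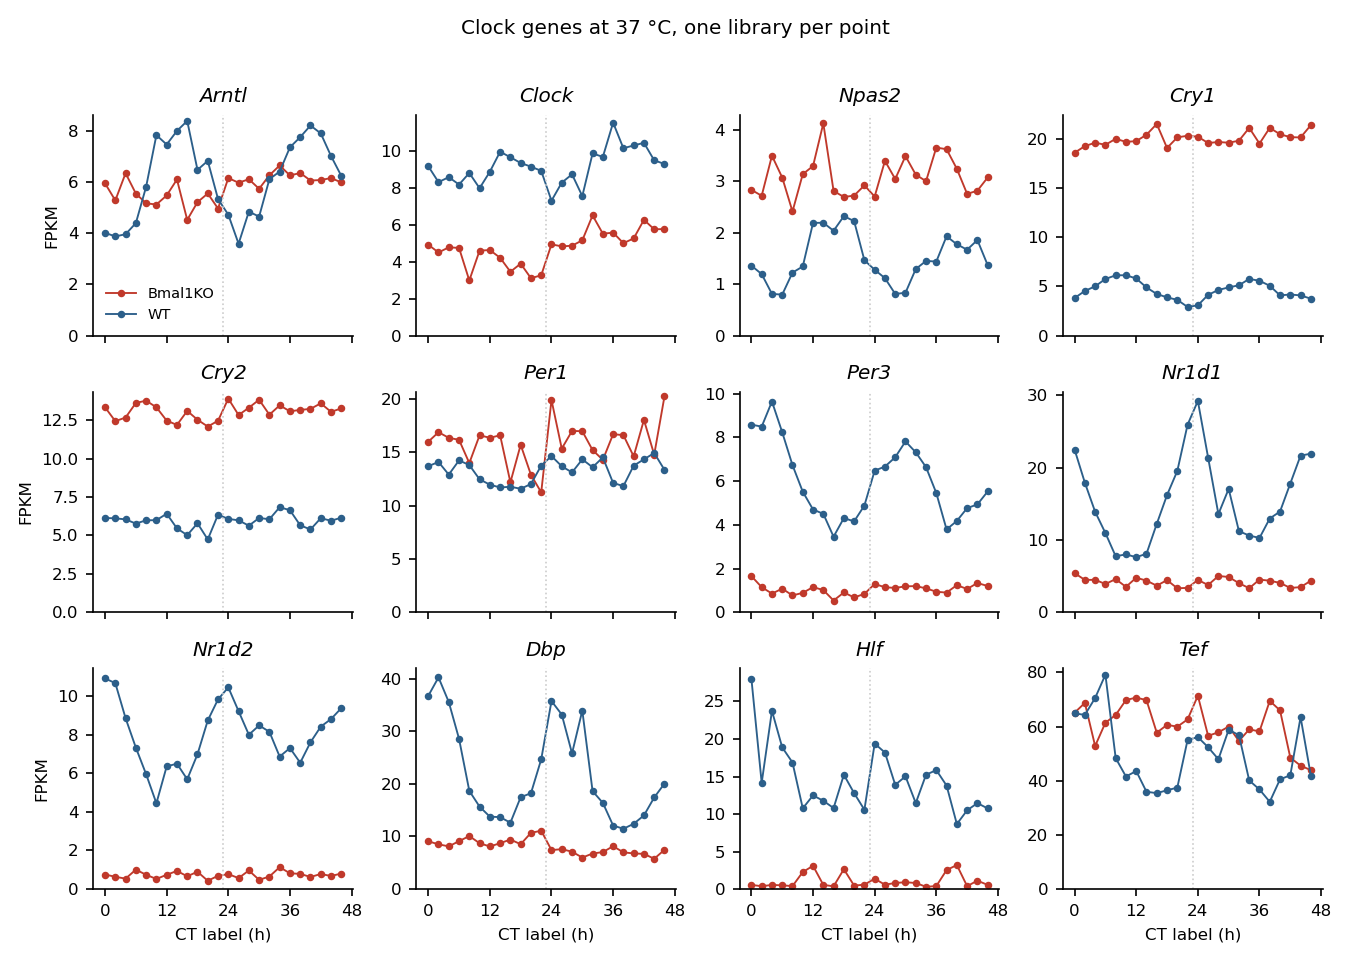
FPKM of 12 clock genes by CT label at 37 °C, 1 library per point, Bmal1KO in red and WT in blue, with the dotted line between the first and the second day. Cry1 lies between 18.6 and 21.5 FPKM in Bmal1KO and from 2.91 to 6.14 FPKM in WT, Nr1d1, Dbp, Per3, Nr1d2 and Hlf lie lower in Bmal1KO, and Arntl runs flat near 5.79 FPKM in Bmal1KO while WT moves between 3.59 and 8.39 FPKM.

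The transcripts with the largest differences were read near 0 in one genotype. Anxa8, a calcium-dependent membrane-binding annexin (chromosome 14, 34085981 to 34100571, plus strand, GRCm38), ranged over 68.7 to 175 FPKM (median 109.7) in Bmal1KO and 0 to 0.229 FPKM (median 0.0298) in WT and differed by 6.69 ± 0.09 (SE) (limma adjusted p = 1e-30). Gdf10, a secreted member of the TGF-beta superfamily also on chromosome 14, ranged over 93.2 to 161 FPKM (median 120.0) in Bmal1KO and 0.0763 to 0.997 FPKM (median 0.266) in WT and differed by 6.48. The groups were far apart in both cases. Further large rises were in the transcription factor gene Myrf (63.7 ± 6.78 FPKM in Bmal1KO and 0.239 ± 0.0643 FPKM in WT), Vsnl1, a calcium sensor known from neurons (51.1 ± 9.15 FPKM in Bmal1KO and 0.29 ± 0.0629 FPKM in WT), and the iron carrier gene Trf, whose values stand with the iron genes. Stxbp2, a partner of syntaxins in vesicle release, stood at 103 ± 16.2 FPKM in Bmal1KO and 2.13 ± 1.24 FPKM in WT. Tmeff2, a transmembrane protein with EGF-like and follistatin-like parts, stood at 88.4 ± 10.1 FPKM in Bmal1KO and 1.62 ± 0.269 FPKM in WT. Aplp1, a relative of the amyloid precursor, stood at 26.4 ± 3.18 FPKM in Bmal1KO and 0.164 ± 0.13 FPKM in WT. The carboxylesterase gene Ces2g (26.2 to 34.6 FPKM, median 29.4, in Bmal1KO and 0 to 0.0494 FPKM, median 0.0165, in WT) and Nkain4 (24.9 to 58.9 FPKM, median 35.8, in Bmal1KO and 0 to 1.3 FPKM, median 0.322, in WT) completed the upper end together with genes described below.

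At the other end, Tnmd, the tendon protein tenomodulin (chromosome X, 133850980 to 133865577, plus strand, GRCm38), ranged over 0.267 to 1.15 FPKM (median 0.558) in Bmal1KO and 254 to 331 FPKM (median 294) in WT and differed by -7.52 ± 0.06 (SE). Itm2a, its neighbour in rank, ranged over 0 to 0.158 FPKM (median 0.0619) in Bmal1KO and 155 to 197 FPKM (median 170.5) in WT and differed by -7.35. Both lie on the X chromosome, where the median difference was -0.10. Arhgdib stood at 3.97 ± 0.993 FPKM in Bmal1KO and 364 ± 28.1 FPKM in WT. Htra1, a secreted serine protease, stood at 8.48 ± 1.46 FPKM in Bmal1KO and 569 ± 35 FPKM in WT. Art3, an ADP-ribosyltransferase relative on chromosome 5, stood at 0 to 1.08 FPKM, median 0.0816, in Bmal1KO and 93.6 to 162 FPKM, median 132, in WT. The methyltransferase gene Inmt stood at 0.80 ± 0.302 FPKM in Bmal1KO and 142 ± 20.2 FPKM in WT. Anpep, which encodes aminopeptidase N, stood at 0.773 ± 0.442 FPKM in Bmal1KO and 99.7 ± 18.2 FPKM in WT. The water channel gene Aqp1 stood at 0.331 ± 0.0981 FPKM in Bmal1KO and 64.7 ± 12.8 FPKM in WT. Other members of this end, such as Crabp1, Igfbp5, Grem1, H19, Zic1, Mmp3 and Serping1, follow with their groups.

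Of the 8 largest gains in FPKM among called genes, 7 were in genes of the translation machinery. This ranking and that of the losses left out predicted genes, pseudogenes and genes not called. Eef1a1, the elongation factor that brings tRNA to the ribosome, averaged 7963 ± 994 FPKM in Bmal1KO and 3771 ± 292 FPKM in WT (difference 1.07), and Eef2, which moves the ribosome along, 2349.9 ± 405 FPKM in Bmal1KO and 914 ± 79.3 FPKM in WT (difference 1.35). Rack1, a ribosome-bound scaffold, averaged 2193 ± 413 FPKM in Bmal1KO and 868 ± 78.7 FPKM in WT, and Ptn, the growth factor pleiotrophin, 1479.7 ± 189 FPKM in Bmal1KO and 544 ± 129 FPKM in WT. Among the largest losses were Actb, beta-actin on chromosome 5, with 1544 ± 138 FPKM in Bmal1KO and 3479 ± 415 FPKM in WT, Gpx3, a secreted glutathione peroxidase, with 116 ± 14.4 FPKM in Bmal1KO and 1502 ± 426 FPKM in WT, and Postn, the matrix protein periostin on chromosome 3, with 645 ± 53.1 FPKM in Bmal1KO and 2005 ± 156 FPKM in WT. Ly6e and Ly6a, GPI-anchored surface proteins, differed by -1.68 and -1.64, the protease inhibitor gene Cst3 by -1.41 and the calcium-binding S100a6, on chromosome 3, by -1.11. With the chromosome medians taken off, the calls of Actb (-0.71), S100a6 (-0.67) and Eef1a1 (0.99) ended, and that of Eef1a1 also ended on the second day alone (0.96).

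Among the lists with 10 or more genes tested, the largest share was called among p53 targets, genes that the tumour suppressor p53 switches on after DNA damage and other stress. Of 27 tested, 23 were higher in Bmal1KO and 0 lower, with a median difference of 2.14, against 6.38% higher, 8% lower and a median of -0.01 over all genes. These shares of all genes also apply to the lists below, with 14.4% called in either direction and 30.4% without overlap between the groups. Cdkn1a, the p21 gene, which halts the cell cycle (chromosome 17, 29090976 to 29100727, plus strand, GRCm38), ranged over 105 to 150.4 FPKM (median 125) in Bmal1KO and 1.08 to 2.6 FPKM (median 1.92) in WT and differed by 5.44 ± 0.05 (SE). The lowest Bmal1KO library was far above the highest WT library.

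Other p53 targets showed the same separation. Psrc1, a microtubule-associated protein gene, ranged over 63.8 to 112 FPKM (median 78.6) in Bmal1KO and 0.87 to 2.71 FPKM (median 1.51) in WT and differed by 5.01, on chromosome 3, where the median gene was lower. Eda2r, a TNF receptor relative, stood at 36.8 ± 3.36 FPKM in Bmal1KO and 1.04 ± 0.273 FPKM in WT (difference 4.22). The death receptor gene Tnfrsf10b, on chromosome 14, stood at 26.4 ± 1.81 FPKM in Bmal1KO and 1.62 ± 0.206 FPKM in WT (difference 3.39). The phosphatase relative Ptprv stood at 4.64 to 28.9 FPKM, median 15.8, in Bmal1KO and 0 to 3.17 FPKM, median 0.286, in WT (difference 3.36). Mdm2, the ligase that degrades p53, differed by 2.72, Ccng1 by 3.25, the death genes Bax and Bbc3 by 1.48 and 2.40, and the death receptor gene Fas by 2.33. The 4 members that were not called were Plk2 (0.06), Sesn1 (0.14), Tap1 (0.52) and Rap2b (0.61). The count was also 23 with another scaling, with a pseudocount of 0.1 FPKM, without the 6 time points and with the chromosome medians taken off.

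Among p53 itself and the CDK inhibitors, 2 of 12 were higher and 4 lower (median -0.21). Cdkn2a, the locus of p16 and p19ARF, stood at 180.2 ± 26.7 FPKM in Bmal1KO and 598 ± 67.7 FPKM in WT (difference -1.73), so it moved against Cdkn1a. Cdkn1c (difference -1.64) and Cdkn2c (-1.05), inhibitors of cyclin-dependent kinases, and Trp63 (-1.17), a relative of p53, were lower as well. Rb1, the retinoblastoma gene, stood at 10.8 ± 2.13 FPKM in Bmal1KO and 3.65 ± 1.07 FPKM in WT (difference 1.36) on chromosome 14. With the chromosome medians taken off, 1 was higher and 3 lower, as Rb1 (0.72) and Cdkn2c (-0.95) no longer reached 2-fold. Cdkn2c also missed it on the second day alone (-0.97).

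Many genes of mitosis were lower in Bmal1KO. Of 19 tested 10 were lower and 0 higher, and all 19 differences were negative (median -1.01). Top2a, the topoisomerase that untangles chromosomes, stood at 3.85 ± 0.90 FPKM in Bmal1KO and 14.7 ± 2.29 FPKM in WT (difference -1.70). Ube2c, which marks mitotic cyclins for destruction, stood at 2.52 ± 0.719 FPKM in Bmal1KO and 7.87 ± 1.78 FPKM in WT. The checkpoint kinase gene Bub1b stood at 1.76 ± 0.658 FPKM in Bmal1KO and 5.35 ± 1.1 FPKM in WT. Cenpa, the histone of centromeres, stood at 2.63 ± 0.986 FPKM in Bmal1KO and 9.94 ± 1.72 FPKM in WT and lies on chromosome 5. The cyclin gene Ccna2, on chromosome 3, stood at 1.03 ± 0.315 FPKM in Bmal1KO and 4.5 ± 1.06 FPKM in WT. The count was 16 of 19 with a pseudocount of 0.1 FPKM, 8 of 19 without the 6 time points and 8 of 19 with the chromosome medians taken off, where Ccna2 (-0.99) was no longer called. Of 23 S phase and replication genes, 0 were called by limma in either direction (median -0.39). An unadjusted p under 0.05 was reached by 20 of the 23, against 10863 of all 12766 genes tested. With a pseudocount of 0.1 FPKM 5 of the 23 were lower, and without the 6 time points 1 was lower. Among their lowest differences were those of Tyms (-1.0, chromosome 5), Mcm3 (-0.93) and Mcm6 (-0.92), while Rrm1, a subunit of ribonucleotide reductase, stood at 24.9 ± 2.45 FPKM in Bmal1KO and 13.2 ± 1.04 FPKM in WT.

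Genes of the cytosolic ribosome were called higher more often than lower. Of 76 tested, 25 were higher and 1 lower, 71 differences were positive and the median was 0.89. Rps27l, a ribosomal protein relative, stood at 335 ± 24.7 FPKM in Bmal1KO and 90.3 ± 7.15 FPKM in WT (difference 1.88). Rps19 stood at 1563 ± 134 FPKM in Bmal1KO and 502 ± 43.4 FPKM in WT (1.64). Rps24, on chromosome 14, stood at 866 ± 44.1 FPKM in Bmal1KO and 298 ± 18 FPKM in WT (1.54). Rpl26 stood at 486 ± 27.6 FPKM in Bmal1KO and 168 ± 16.5 FPKM in WT (1.53). Rpl32, Rpl41 and Rps15 were among the largest gains in FPKM of the called genes ranked above, with 2128 ± 227 FPKM in Bmal1KO and 815 ± 73.8 FPKM in WT for Rpl32, 2521 ± 279.7 FPKM in Bmal1KO and 1030.2 ± 123 FPKM in WT for Rpl41 and 2330.1 ± 201 FPKM in Bmal1KO and 856 ± 85.2 FPKM in WT for Rps15. The lower member was Rpl5 (-1.18), which was no longer called once the chromosome medians were taken off. Ribosomal protein genes have many near-identical pseudogenes that can share reads, so single members are uncertain. With the medians taken off 28 were higher and 0 lower, and Rps24 (0.90) was not called. In the libraries that stand apart, the median member of this list lay up to 0.30 log2 units above its own median over the genotype's libraries.

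Protein-turnover genes gave no such shift. Of 31 proteasome subunits 0 were called by limma in either direction (median -0.05, 25 with an unadjusted p under 0.05), with Psmb5, on chromosome 14, at 0.80 and Psmc2, on chromosome 5, at -0.71. Of 25 genes of the unfolded protein and integrated stress responses 0 were called by limma either (median -0.24), and 24 had an unadjusted p under 0.05. Over all genes, 10863 of 12766 had an unadjusted p under 0.05. Among 29 lysosomal genes 3 were called (10.3%, against 14.4% of all genes), the protease genes Ctsh (difference 1.61) and Ctsf (1.17) higher and Ctsl, on chromosome 13, lower at 323 ± 24.2 FPKM in Bmal1KO and 1092 ± 78.9 FPKM in WT.

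Many cholesterol genes were lower in Bmal1KO. Of 24 genes of synthesis and uptake 14 were lower, 0 were higher and all 24 differences were negative (median -1.10). Cyp51, an enzyme of sterol synthesis on chromosome 5, ranged over 13.1 to 24.6 FPKM (median 17.5) in Bmal1KO and 55.2 to 90.5 FPKM (median 71.4) in WT and differed by -2.02 ± 0.05 (SE). The enzyme genes Fdps (7.91 ± 1.68 FPKM in Bmal1KO and 31.3 ± 4.82 FPKM in WT, chromosome 3), Sc5d (21.4 ± 1.48 FPKM in Bmal1KO and 67.6 ± 5.17 FPKM in WT) and Mvd (7.18 ± 1.6 FPKM in Bmal1KO and 23.4 ± 3.9 FPKM in WT) were without overlap. The regulator Srebf2 differed by -0.75 and Fdft1, which makes squalene, by -0.08. Neither Srebf2 nor Fdft1 was called. Of these genes 9 lie on chromosomes 3, 5, 13 or 14, and 13 were still called lower with the chromosome medians taken off. Among 13 genes of fatty acid synthesis 2 were called (15.4%, against 14.4% of all genes). Elovl6 (difference -1.75, chromosome 3) and Scd1 (17.2 ± 1.7 FPKM in Bmal1KO and 53.3 ± 6.97 FPKM in WT, difference -1.57) were lower and 0 were higher.

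Genes of the extracellular matrix changed in both directions. Of 24 collagen chain genes, 5 were higher and 6 lower (median -0.30). Col23a1, a transmembrane collagen, stood at 0.364 ± 0.132 FPKM in Bmal1KO and 25.3 ± 4.47 FPKM in WT (difference -4.25). Col8a1 stood at 0.689 ± 0.318 FPKM in Bmal1KO and 18.1 ± 2.04 FPKM in WT (-3.52). Col12a1, which binds collagen fibrils, stood at 4.45 ± 1.46 FPKM in Bmal1KO and 57 ± 6.14 FPKM in WT (-3.45). Col20a1 (7.83 ± 1.83 FPKM in Bmal1KO and 0.313 ± 0.124 FPKM in WT) and the basement membrane chain gene Col4a6 (17.8 ± 1.81 FPKM in Bmal1KO and 3.84 ± 0.80 FPKM in WT) were higher. Col1a1, the main chain of type I collagen, differed by 0.00 and Col3a1 by 0.62, and neither was called.

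Matrix proteases held some of the steepest losses. Mmp3, the secreted protease stromelysin 1 (chromosome 9, 7445822 to 7455975, plus strand, GRCm38), ranged over 8.51 to 14 FPKM (median 10.6) in Bmal1KO and 549 to 969 FPKM (median 832) in WT and differed by -6.11 ± 0.04 (SE). Mmp9 stood at 0.506 ± 0.218 FPKM in Bmal1KO and 16.3 ± 3.27 FPKM in WT. The collagenase gene Mmp13 stood at 0.363 ± 0.159 FPKM in Bmal1KO and 14.8 ± 7.75 FPKM in WT. Mmp11 stood at 22.6 ± 3.54 FPKM in Bmal1KO and 99.6 ± 13.6 FPKM in WT. Timp3, a tissue inhibitor of such proteases, went the other way with 282 ± 40.6 FPKM in Bmal1KO and 55.7 ± 6.74 FPKM in WT (difference 2.32). In all, 3 of 26 genes of this list were higher and 7 lower.

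Small leucine-rich proteoglycans, which organise collagen fibrils, were lower in 6 of 13 cases and higher in 1 (median -0.83). Ogn (103 ± 35.3 FPKM in Bmal1KO and 535 ± 148 FPKM in WT) and Omd (5.04 ± 1.88 FPKM in Bmal1KO and 19.8 ± 5.46 FPKM in WT) both lie on chromosome 13. Epyc was higher, at 3.46 to 5.84 FPKM, median 4.87, in Bmal1KO and 0 to 0.525 FPKM, median 0.173, in WT. Of 35 elastic fibre and matricellular genes 14 were lower and 4 higher (median -0.83). Spp1, osteopontin on chromosome 5, ranged over 22.7 to 40.7 FPKM (median 29.2) in Bmal1KO and 620.1 to 1006 FPKM (median 792) in WT and differed by -4.69. Fbln1, fibulin 1, stood at 29.4 ± 3.08 FPKM in Bmal1KO and 249 ± 11.8 FPKM in WT. The microfibril gene Fbn2 stood at 1.14 ± 0.377 FPKM in Bmal1KO and 10.1 ± 1.78 FPKM in WT. Sparcl1, on chromosome 5, stood at 0.336 ± 0.191 FPKM in Bmal1KO and 10.7 ± 2.64 FPKM in WT, while Ltbp4, which tethers latent TGF-beta, was higher at 46 ± 5.79 FPKM in Bmal1KO and 3.15 ± 0.851 FPKM in WT (difference 3.52).

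Contractile genes were lower or not called, with 8 of 15 lower, 0 higher and a median of -1.12. Mylk, the kinase of myosin light chains, stood at 0.394 ± 0.0846 FPKM in Bmal1KO and 12.8 ± 0.885 FPKM in WT (difference -3.31). The tropomyosin gene Tpm2 stood at 20.7 ± 3.47 FPKM in Bmal1KO and 94.4 ± 10.8 FPKM in WT. Tpm1, another, stood at 221 ± 16.2 FPKM in Bmal1KO and 541 ± 42 FPKM in WT. The myosin light chain gene Myl9 stood at 29.4 ± 6.18 FPKM in Bmal1KO and 104 ± 19.8 FPKM in WT. Acta2 and Tagln, the usual markers of myofibroblasts, differed by -0.24 and -0.10 and were not called. Of 14 YAP and SRF targets 4 were lower and 0 higher (28.6% called, against 14.4% of all genes). Ankrd1 stood at 0.483 ± 0.191 FPKM in Bmal1KO and 9.28 ± 2.23 FPKM in WT. Amotl2 stood at 41.3 ± 6.5 FPKM in Bmal1KO and 119 ± 25.3 FPKM in WT. Crim1 stood at 4.02 ± 0.618 FPKM in Bmal1KO and 11.6 ± 2.25 FPKM in WT. The coagulation factor gene F3, on chromosome 3, stood at 122 ± 4.09 FPKM in Bmal1KO and 302 ± 14.3 FPKM in WT, whereas Ccn1 differed by -0.79 and Ccn2 by -0.58, neither called. With the chromosome medians taken off 3 of the list were lower, and F3 (-0.86) was not called.

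**Figure D3:**
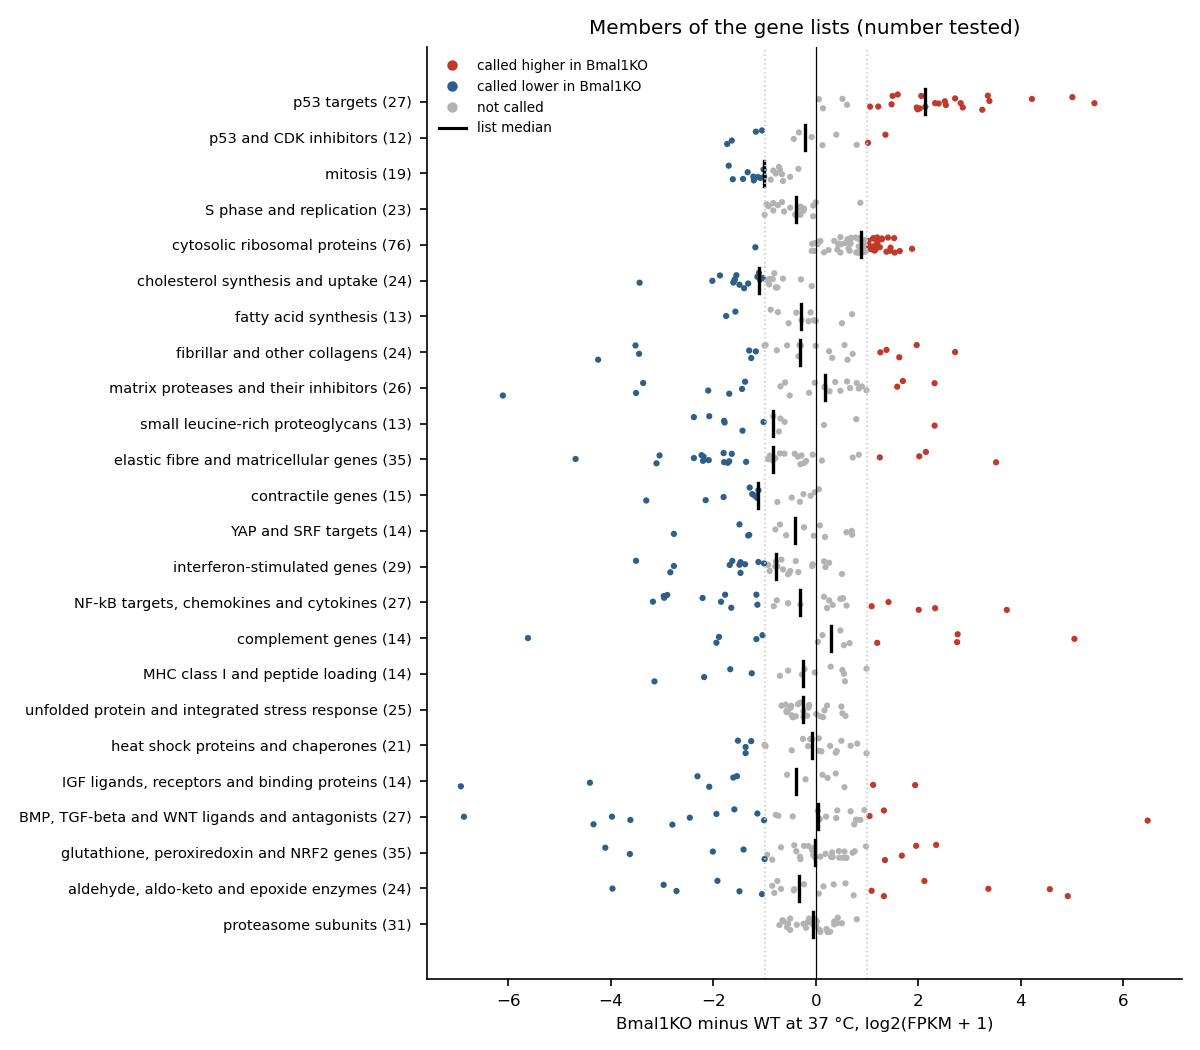
Difference between Bmal1KO and WT for each tested member of 24 gene lists, on the log2(FPKM + 1) scale, with the number tested in brackets. Red points were called higher, blue points lower and grey points not called, and black bars are list medians. The p53 targets lie to the right with a median of 2.14 and the cholesterol, contractile and mitosis genes to the left with medians of -1.10, -1.12 and -1.01, while matrix, cytokine and growth factor lists spread to both sides.

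Interferon-stimulated genes were lower or not called. Of 29 tested 11 were lower and 0 higher (median -0.78), and 9 were lower with the chromosome medians taken off. Irf7, the transcription factor that amplifies interferon production, ranged over 12.2 to 39.1 FPKM (median 22.2) in Bmal1KO and 78.5 to 273 FPKM (median 168) in WT and differed by -2.84 ± 0.06 (SE). Ifi44 (4.05 ± 2.13 FPKM in Bmal1KO and 54.8 ± 17.4 FPKM in WT, chromosome 3), the RNA sensor gene Ddx58 (25.5 ± 3.18 FPKM in Bmal1KO and 81.3 ± 13.1 FPKM in WT), Gbp3 (23.3 ± 5.15 FPKM in Bmal1KO and 78.1 ± 22.2 FPKM in WT, chromosome 3) and Oasl1 (0.647 ± 0.34 FPKM in Bmal1KO and 10.7 ± 4.25 FPKM in WT, chromosome 5) were lower without overlap. Isg15, a ubiquitin-like protein gene, differed by -0.79 and did not reach 2-fold.

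Of 27 NF-kB targets, chemokines and cytokines, 5 were higher and 10 lower. Chemokine genes were among the lower ones, with Cx3cl1 at 2.78 ± 0.476 FPKM in Bmal1KO and 33.2 ± 1.89 FPKM in WT. Ccl5 stood at 5.87 ± 1.89 FPKM in Bmal1KO and 51.9 ± 11.9 FPKM in WT. Cxcl5 stood at 10.6 ± 1.77 FPKM in Bmal1KO and 92.5 ± 27.6 FPKM in WT. Cxcl10 stood at 2.49 ± 0.945 FPKM in Bmal1KO and 25 ± 7.5 FPKM in WT, and both of these lie on chromosome 5. Saa3, an acute-phase protein gene, ranged over 458 to 1005 FPKM (median 703) in Bmal1KO and 32.6 to 71.6 FPKM (median 52.9) in WT and was higher by 3.73 ± 0.07 (SE). Il33, Lif and Tnfsf9 were the other cytokine genes called higher, by 1.42, 2.33 and 2.01.

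Complement genes were split, with 4 of 14 higher and 5 lower. Serping1, the inhibitor of the C1 complex, ranged over 1.22 to 2.89 FPKM (median 1.51) in Bmal1KO and 99.3 to 159 FPKM (median 125) in WT and differed by -5.62 ± 0.05 (SE). Masp1, a protease of the lectin pathway, stood at 0.482 ± 0.147 FPKM in Bmal1KO and 4.77 ± 1.09 FPKM in WT. The surface inhibitor Cd55, which speeds the decay of complement convertases, was higher at 69.6 ± 6.9 FPKM in Bmal1KO and 1.14 ± 0.251 FPKM in WT (difference 5.05), as was C7, a part of the membrane attack complex (16.4 ± 5.86 FPKM in Bmal1KO and 1.43 ± 0.429 FPKM in WT).

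MHC class I and peptide loading genes were lower in 4 of 14 cases and higher in 0 (28.6% called, against 14.4% of all genes). H2-K1 stood at 122 ± 15.3 FPKM in Bmal1KO and 555 ± 60.7 FPKM in WT (difference -2.18). H2-D1 stood at 170.1 ± 22.4 FPKM in Bmal1KO and 543 ± 57.7 FPKM in WT (-1.67). The peptide loading gene Tapbp stood at 236 ± 36.7 FPKM in Bmal1KO and 570.0 ± 124 FPKM in WT (-1.25). H2-Q4 stood at 2.52 ± 0.58 FPKM in Bmal1KO and 30.3 ± 5.27 FPKM in WT. H2-T23 stood at 113 ± 17 FPKM in Bmal1KO and 56.9 ± 10.8 FPKM in WT and was just under the 2-fold limit on the other side. These genes resemble each other closely, so reads may be split between them.

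In the IGF system the largest differences were in genes of binding proteins. Of 14 genes tested 2 were higher and 6 lower. Igfbp5 (chromosome 1, 72857932 to 72874884, minus strand, GRCm38) ranged over 0.0522 to 0.341 FPKM (median 0.176) in Bmal1KO and 65.5 to 232 FPKM (median 154) in WT and differed by -6.93 ± 0.09 (SE). Igfbp3 stood at 17.3 ± 3.44 FPKM in Bmal1KO and 402 ± 136 FPKM in WT (-4.41). Igfbp7, on chromosome 5, stood at 106 ± 15.5 FPKM in Bmal1KO and 523 ± 37.5 FPKM in WT (-2.31). All encode proteins that bind IGFs or relatives of them. Igfbp4 was higher, at 644 ± 84.3 FPKM in Bmal1KO and 168 ± 31.2 FPKM in WT (1.94). Pappa, the protease that cuts IGFBP4, was lower, at 0 to 0.050 FPKM, median 0.0208, in Bmal1KO and 1.82 to 5.3 FPKM, median 3.53, in WT.

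Among 27 BMP, TGF-beta and WNT ligands and antagonists, 3 were higher and 10 lower. Grem1, a secreted BMP antagonist, ranged over 0.0192 to 0.306 FPKM (median 0.104) in Bmal1KO and 78.4 to 184 FPKM (median 141) in WT and differed by -6.87. Chrdl1, another antagonist, stood at 0.0615 ± 0.0416 FPKM in Bmal1KO and 20.7 ± 2.49 FPKM in WT. The R-spondin genes, whose products strengthen WNT signalling, were lower, with Rspo3 at 1.36 ± 0.325 FPKM in Bmal1KO and 36.1 ± 2.28 FPKM in WT. Rspo2 stood at 0.517 ± 0.16 FPKM in Bmal1KO and 17.6 ± 1.79 FPKM in WT. Of 28 FGF, PDGF, HGF and angiogenic ligands 5 were higher and 12 lower. Agt, the precursor of angiotensin, was higher at 399.7 ± 47.9 FPKM in Bmal1KO and 17.4 ± 3.39 FPKM in WT (difference 4.46), and Angpt4 (3.46 ± 0.679 FPKM in Bmal1KO and 56.9 ± 6.48 FPKM in WT), the midkine gene Mdk (0 to 0.44 FPKM, median 0.139, in Bmal1KO and 7.98 to 12.5 FPKM, median 10.2, in WT), Vegfc (0.664 ± 0.16 FPKM in Bmal1KO and 13.3 ± 1.71 FPKM in WT) and the endothelin gene Edn1 (0.452 ± 0.177 FPKM in Bmal1KO and 7.18 ± 2.71 FPKM in WT, chromosome 13) were lower.

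Of 13 genes of retinoid binding and synthesis 2 were higher and 4 lower (median 0.03). Crabp1 and Crabp2 bind retinoic acid in the cell, and both were lower, Crabp1 with 0 to 0.337 FPKM (median 0.144) in Bmal1KO and 81.4 to 213 FPKM (median 143) in WT (difference -6.94) and Crabp2, on chromosome 3, with 0.762 ± 0.253 FPKM in Bmal1KO and 62.8 ± 16.4 FPKM in WT (difference -5.14). The retinol carrier Rbp4 (15.3 ± 2.0 FPKM in Bmal1KO and 0.597 ± 0.322 FPKM in WT) was higher.

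Imprinted growth genes also moved in both directions, with 4 of 19 higher and 7 lower. H19, the imprinted long non-coding RNA (chromosome 7, 142575529 to 142578143, minus strand, GRCm38), ranged over 0.765 to 2.36 FPKM (median 1.4) in Bmal1KO and 202 to 314 FPKM (median 249.8) in WT and differed by -6.72 ± 0.05 (SE). Mest stood at 19.7 ± 3.31 FPKM in Bmal1KO and 122 ± 10.6 FPKM in WT. The zinc finger gene Plagl1 stood at 2.0 ± 0.685 FPKM in Bmal1KO and 11.7 ± 3.23 FPKM in WT. Peg3, another imprinted zinc finger gene, was higher at 5.99 to 19.1 FPKM, median 11.4, in Bmal1KO and 0 to 0.0865 FPKM, median 0.00359, in WT (difference 3.60), and so were Ndn (5.56 ± 0.572 FPKM in Bmal1KO and 0.456 ± 0.102 FPKM in WT), Dlk1 (1.12) and Rian (1.21).

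Redox and detoxifying enzymes gave large differences in both directions. Ephx1, microsomal epoxide hydrolase, stood at 313 ± 24.6 FPKM in Bmal1KO and 29.5 ± 3.92 FPKM in WT (difference 3.37), and Ephx2, the soluble form on chromosome 14, ranged over 31.4 to 49.1 FPKM (median 37.4) in Bmal1KO and 0.117 to 0.728 FPKM (median 0.228) in WT and differed by 4.92. Aldh1a7, an aldehyde dehydrogenase, ranged over 35.7 to 53.1 FPKM (median 42.2) in Bmal1KO and 0.392 to 1.45 FPKM (median 0.839) in WT and differed by 4.57. The cytochrome P450 genes Cyp2f2 (7.28 ± 1.24 FPKM in Bmal1KO and 130.4 ± 27.6 FPKM in WT) and Cyp7b1 (1.9 ± 0.448 FPKM in Bmal1KO and 22 ± 4.96 FPKM in WT, chromosome 3) were lower. In this list of aldehyde, aldo-keto and epoxide enzymes 6 of 24 were higher and 6 lower. Of 35 glutathione, peroxiredoxin and NRF2 genes 4 were higher and 5 lower (25.7% called, against 14.4% of all genes). Gsta4 was lower at 1.36 ± 0.399 FPKM in Bmal1KO and 39.3 ± 3.53 FPKM in WT. Gsta3 was higher, at 1.92 to 7.36 FPKM, median 4.54, in Bmal1KO and 0 to 0.304 FPKM, median 0.0482, in WT. Gclc, the rate-limiting enzyme of glutathione synthesis, was higher at 31.7 ± 2.61 FPKM in Bmal1KO and 7.43 ± 0.76 FPKM in WT. Prdx6 was lower, at 58.2 ± 6.09 FPKM in Bmal1KO and 237 ± 20.9 FPKM in WT.

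Iron genes were led by Trf, which ranged over 34.9 to 74.7 FPKM (median 49.2) in Bmal1KO and 0 to 0.423 FPKM (median 0) in WT and differed by 5.57 ± 0.04 (SE). The ferrireductase genes Steap4 (6.77 ± 0.639 FPKM in Bmal1KO and 62.2 ± 5.05 FPKM in WT, chromosome 5) and Steap3 (26.1 ± 1.95 FPKM in Bmal1KO and 85.9 ± 5.91 FPKM in WT) and the iron regulator Hfe (6.74 ± 1.12 FPKM in Bmal1KO and 34.5 ± 1.72 FPKM in WT, chromosome 13) were lower. Of 18 tested 3 were higher and 6 lower, and with the chromosome medians taken off 1 was higher and 3 lower. On chromosomes 3, 5, 13 or 14 lie 8 genes of the list.

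Lipid handling, oxygen and hormone genes held single large differences. In the lipid list 5 of 22 genes were higher and 2 lower (31.8% called, against 14.4% of all genes). The glycolysis and hypoxia list had 2 of 27 higher and 2 lower (14.8% called). Fabp4, a fatty acid binding protein, stood at 10.5 ± 1.32 FPKM in Bmal1KO and 2.39 ± 0.512 FPKM in WT. The lipoprotein lipase gene Lpl stood at 154 ± 22.7 FPKM in Bmal1KO and 74.3 ± 14.9 FPKM in WT. Both were higher, although Lpl (0.97) was not called with the chromosome medians taken off, whereas the lipid carrier gene Apod was lower, at 127 ± 32.9 FPKM in Bmal1KO and 890.4 ± 116 FPKM in WT. Adm, the vasodilator adrenomedullin, stood at 11.2 ± 2.15 FPKM in Bmal1KO and 135 ± 28 FPKM in WT. Aldoc, a glycolytic aldolase gene, stood at 0.428 ± 0.35 FPKM in Bmal1KO and 10.1 ± 3.06 FPKM in WT, while Slc16a3, a lactate exporter, was higher at 19.3 ± 3.13 FPKM in Bmal1KO and 5.28 ± 1.22 FPKM in WT. Of 20 genes of the glucocorticoid receptor and its targets 4 were higher, among them Ddit4 (71.5 ± 11.4 FPKM in Bmal1KO and 13.4 ± 4.37 FPKM in WT) and the metallothionein gene Mt1 (520.1 ± 99.7 FPKM in Bmal1KO and 183 ± 31.7 FPKM in WT), and 5 lower, among them Pdk4 (2.89 ± 0.766 FPKM in Bmal1KO and 33.2 ± 9.04 FPKM in WT). Of 24 immediate early genes 4 were called (16.7%, against 14.4% of all genes). Klf4 (65.6 ± 7.26 FPKM in Bmal1KO and 13.4 ± 2.34 FPKM in WT), Egr2 (3.38 ± 0.898 FPKM in Bmal1KO and 0.828 ± 0.362 FPKM in WT) and Egr3 (3.08 ± 0.579 FPKM in Bmal1KO and 1.00 ± 0.315 FPKM in WT, chromosome 14) were higher and Nr4a2 (0.595 ± 0.109 FPKM in Bmal1KO and 3.46 ± 0.695 FPKM in WT) was lower. Egr3 was not called with the chromosome medians taken off (0.39), on the first day alone (0.96) or with 1 of the time points left out (0.99).

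Of 21 chaperone genes 4 were lower and 0 higher (19% called, against 14.4% of all genes), and their median difference was -0.07. The lower ones were Hspa4l (3.61 ± 0.63 FPKM in Bmal1KO and 12.1 ± 1.06 FPKM in WT, chromosome 3), Hspb6 (6.22 ± 0.723 FPKM in Bmal1KO and 17.6 ± 1.35 FPKM in WT), Hsph1 (33.5 ± 3.13 FPKM in Bmal1KO and 89 ± 14.8 FPKM in WT, chromosome 5) and Dnaja1 (8.49 ± 0.93 FPKM in Bmal1KO and 21.8 ± 2.16 FPKM in WT). Hsph1 (-0.91) was not called with the chromosome medians taken off. The RNA-binding protein genes Cirbp and Rbm3, known for induction by mild cold, differed by 0.43 and 0.41 and were not called. Of the transcripts of the mitochondrial genome 0 of 7 were called by limma (5 had an unadjusted p under 0.05, against 10863 of all 12766 genes), with mt-Nd1 at 893 ± 122 FPKM in Bmal1KO and 584 ± 63 FPKM in WT. The level of mt-Co1 stood at 2405 ± 389.9 FPKM in Bmal1KO and 2809 ± 322 FPKM in WT.

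Hox genes, whose order along a chromosome follows the body axis in the embryo, were called lower at numbers 9 and 10, the highest tested. At the low end most were not called, and the 2 called were higher. The split into low, middle and high numbers was chosen after the values were seen. Of 11 tested genes with numbers 1 to 5, 2 were higher and 0 lower (median 0.60), of 8 with numbers 6 to 8, 0 were higher and 4 lower (median -0.81), and of 6 with numbers 9 to 13, 0 were higher and 6 lower (median -4.89). These 6 have numbers 9 or 10. Hoxd10 and the genes with numbers 11 to 13 averaged at most 0.161 FPKM in either genotype and were not tested. Hoxa3 (-0.40), Hoxa5 (-0.60) and Hoxb5 (-0.81), not called, were the negative ones among the low numbers.

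Of the 6 high-numbered genes, 5 lay near 0 in Bmal1KO. Hoxa9 (chromosome 6, 52223100 to 52231089, minus strand, GRCm38) stood at 0 to 0.12 FPKM, median 0, in Bmal1KO and 31.5 to 48.2 FPKM, median 38.7, in WT. Hoxa10 stood at 0 to 0.0897 FPKM, median 0, in Bmal1KO and 35 to 42 FPKM, median 38.3, in WT. Hoxb9 stood at 0 to 0.072 FPKM, median 0, in Bmal1KO and 18.6 to 27.3 FPKM, median 21.9, in WT. Hoxc9 stood at 0.287 ± 0.118 FPKM in Bmal1KO and 17.6 ± 1.28 FPKM in WT. Hoxc10 stood at 0 to 0.178 FPKM, median 0.0649, in Bmal1KO and 38.9 to 51.2 FPKM, median 45.8, in WT. The groups did not overlap for any of these 5, which passed the filter only through their WT level and so could only be called lower. Hoxd9 kept a low level, at 1.12 FPKM in Bmal1KO, 7.71 in WT. In the middle of the clusters Hoxa7 stood at 0.111 FPKM in Bmal1KO, 12.8 in WT, whereas Hoxc6 (78.7 FPKM in Bmal1KO, 81.4 in WT), Hoxb7 (15.4 FPKM in Bmal1KO, 13.9 in WT) and Hoxd8 (16.1 FPKM in Bmal1KO, 19.3 in WT) were close in both genotypes. Hoxb2 was higher, at 6.86 FPKM in Bmal1KO, 0.569 in WT, and so was Hoxa4, at 2.86 FPKM in Bmal1KO, 0.786 in WT. Hoxa6, Hoxb6 and Hoxb8 were the other lower members, and with the chromosome medians taken off 1 Hox gene was higher and 10 lower.

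**Figure D4:**
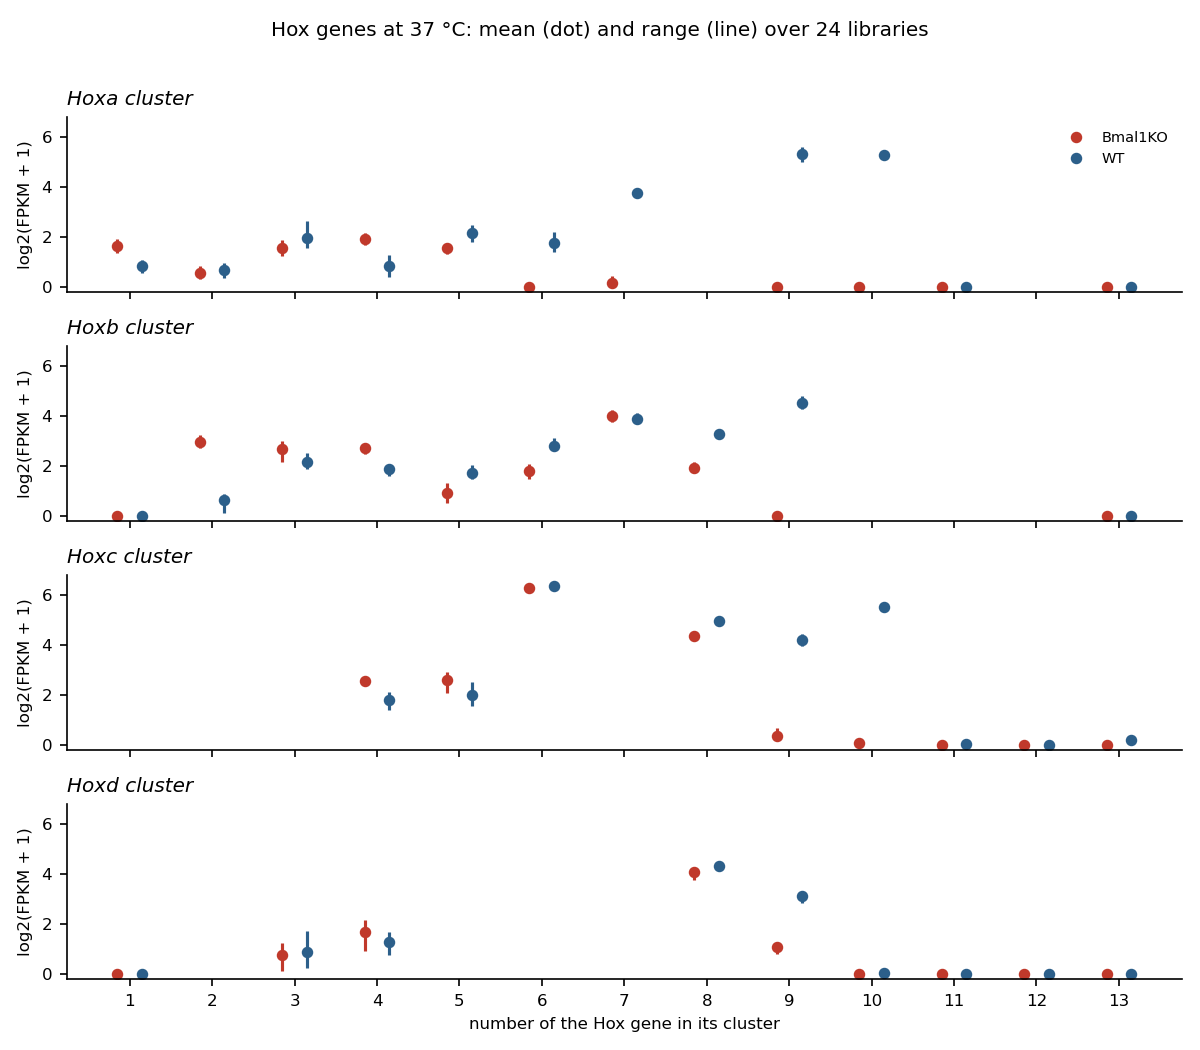
Mean level (dot) and range over 24 libraries (line) of the Hox genes of each cluster at 37 °C, Bmal1KO in red and WT in blue, as log2(FPKM + 1) against the gene's number in the cluster. Hoxa9, Hoxa10, Hoxb9, Hoxc9 and Hoxc10 lie near 0 in Bmal1KO and between 17.6 and 45.5 FPKM in WT, while Hoxb2 is the low-numbered gene furthest above WT.

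Other transcription factors with regional roles in the embryo followed no single direction, with 6 of 28 higher and 12 lower (median -0.61). Zic1 (chromosome 9, 91358058 to 91365810, minus strand, GRCm38) ranged over 0 to 0.238 FPKM (median 0.0131) in Bmal1KO and 55.5 to 96.8 FPKM (median 81.4) in WT and differed by -6.25. Its neighbour Zic4 stood at 0 to 0.197 FPKM, median 0, in Bmal1KO and 5.03 to 9.82 FPKM, median 6.99, in WT. Lhx8, on chromosome 3, stood at 0 to 0.217 FPKM, median 0.0232, in Bmal1KO and 19.9 to 31.1 FPKM, median 26.1, in WT. En1, a regulator of ventral skin and hindbrain patterning, stood at 0.979 ± 0.191 FPKM in Bmal1KO and 18 ± 2.09 FPKM in WT. Gata4, known from heart and other inner organs, was higher at 9.7 to 16.2 FPKM, median 13.1, in Bmal1KO and 0 to 0.0742 FPKM, median 0.0174, in WT (difference 3.78, chromosome 14), and so were Gata6 (2.33), Alx4 (2.41), Tbx3 (1.58), Meis1 (1.24) and Msx1 (1.08).

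The tendon and ligament genes went the way of Tnmd for Mkx, a homeobox factor of tendon, at 0.649 ± 0.404 FPKM in Bmal1KO and 11.8 ± 2.94 FPKM in WT. Scx stood at 0.31 ± 0.157 FPKM in Bmal1KO and 2.43 ± 0.752 FPKM in WT, while the prostacyclin synthase gene Ptgis was higher at 172 ± 27.7 FPKM in Bmal1KO and 51.2 ± 3.6 FPKM in WT. Of adhesion genes, 5 of 22 were higher and 4 lower. Cdh11, the cadherin of mesenchymal cells, stood at 34.6 ± 2.8 FPKM in Bmal1KO and 147 ± 10.4 FPKM in WT, and the collagen receptor genes Itga11 (4.45 ± 0.645 FPKM in Bmal1KO and 41.5 ± 9.43 FPKM in WT) and Itga1 (1.72 ± 0.463 FPKM in Bmal1KO and 9.62 ± 0.967 FPKM in WT, chromosome 13) were lower, while Cdh3 (7.52 ± 0.952 FPKM in Bmal1KO and 1.52 ± 0.19 FPKM in WT) and Chl1 (4.2 ± 0.756 FPKM in Bmal1KO and 0.064 ± 0.0668 FPKM in WT) were higher.

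The labelled cell type was checked against markers. All 15 fibroblast markers were above the filter, with summed levels of 14021 to 20116 FPKM in Bmal1KO and 11766 to 14676 FPKM in WT libraries. Of them 3 were higher, among them Dpt (888 ± 78.5 FPKM in Bmal1KO and 238 ± 20.9 FPKM in WT) and Pi16 (2.64 ± 0.792 FPKM in Bmal1KO and 0.387 ± 0.23 FPKM in WT), and 5 lower, among them Pdgfra (127 ± 12.1 FPKM in Bmal1KO and 484 ± 26.8 FPKM in WT, chromosome 5), Fbn1 (36.2 ± 9.66 FPKM in Bmal1KO and 118 ± 14.6 FPKM in WT) and Lum (32.5 ± 4.05 FPKM in Bmal1KO and 89.7 ± 15.3 FPKM in WT). Several defining markers of other cell types were listed at 0, while other members of the same lists were read. Krt5, of keratinocytes, was listed at 0 in 22 of 24 Bmal1KO libraries (highest 0.034 FPKM) and in all 24 WT libraries. Krt10 averaged 0.685 FPKM in Bmal1KO and 1.21 FPKM in WT, Cdh1 0.534 and 0.017 FPKM, and Krt15 0.283 and 0.006 FPKM. The 14 keratinocyte markers summed to 2.56 to 4.49 FPKM in Bmal1KO and 5.48 to 8.61 FPKM in WT libraries, and the 2 tested were lower. Ptprc, of leukocytes, was listed at 0 in 24 Bmal1KO and 23 WT libraries, and Myod1, of muscle, likewise. The 13 leukocyte markers, 3 of them tested, summed to 10.0 to 15.8 FPKM in Bmal1KO and 12.2 to 16.1 FPKM in WT libraries. The 10 skeletal muscle markers, 1 of them tested, summed to 0.62 to 4.86 FPKM in Bmal1KO and 2.03 to 6.11 FPKM in WT libraries. The endothelial genes Cldn5 and Tie1 were listed at 0 in all 24 libraries of each genotype, but Kdr averaged 0.714 FPKM in Bmal1KO and 1.15 FPKM in WT and Tek 0.793 FPKM in Bmal1KO and 1.16 FPKM in WT. The 10 endothelial markers summed to 3.47 to 8.98 FPKM in Bmal1KO and 5.44 to 12.02 FPKM in WT libraries.

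The 4 Y-linked genes tested (Ddx3y, Eif2s3y, Kdm5d and Uty) were present in both genotypes, with differences between -0.15 and 0.16, and none was called.

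Some other marker lists moved with genotype. The 8 melanocyte markers summed to 3.16 to 5.09 FPKM in Bmal1KO and 13.5 to 23.9 FPKM in WT libraries, with Mlana (0 to 0.676 FPKM, median 0.177, in Bmal1KO and 2.56 to 9.81 FPKM, median 5.85, in WT) and Mitf (2.44 ± 0.435 FPKM in Bmal1KO and 13 ± 1.58 FPKM in WT) lower, while Tyr was listed at 0 in 24 Bmal1KO and 17 WT libraries (highest 0.007 FPKM in WT) and Pmel averaged 1.01 FPKM in Bmal1KO and 0.676 FPKM in WT. The other melanocyte markers averaged at most 0.017 FPKM in either genotype, with Tyrp1 and Dct higher and Sox10 and Kit lower in Bmal1KO. The 7 mesothelium markers summed to 24.4 to 49.1 FPKM in Bmal1KO and 0.937 to 3.45 FPKM in WT, mostly from the keratin gene Krt19 (31.9 ± 6.81 FPKM in Bmal1KO and 1.53 ± 0.457 FPKM in WT, difference 3.69), with Lrrn4 at 1.69 to 2.94 FPKM, median 2.35, in Bmal1KO and 0 to 0.0134 FPKM, median 0, in WT. Upk3b was read in all 24 Bmal1KO libraries (mean 1.23 FPKM, highest 1.90) and listed at 0 in 21 of 24 WT libraries (highest 0.030 FPKM). Wt1 averaged 0.426 FPKM in Bmal1KO and 0.191 FPKM in WT, and Msln 0.548 FPKM in Bmal1KO and 0.568 FPKM in WT. The other keratin genes of the list, Krt8 and Krt18, averaged at most 0.021 FPKM in either genotype. Adipocyte markers summed to 147 to 229 FPKM in Bmal1KO and 65.6 to 112 FPKM in WT, carried by Lpl. Plin1 was read in all 24 Bmal1KO libraries (mean 1.78 FPKM, highest 4.48) and listed at 0 in 18 of 24 WT libraries (highest 0.043 FPKM). Retn, likewise read in all 24 Bmal1KO libraries, averaged 0.367 FPKM there and was listed at 0 in 18 WT libraries (highest 0.182 FPKM). Cidec was listed at 0 in 3 Bmal1KO libraries (highest 1.03 FPKM) and 22 WT libraries (highest 0.060 FPKM), Adipoq in 6 Bmal1KO libraries (highest 1.10 FPKM) and 10 WT libraries (highest 0.562 FPKM), and Lep in 24 Bmal1KO and 23 WT libraries. The part of such cells in the results was not tested, and in bulk RNA fewer cells of a type and less RNA per cell cannot be told apart.

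The difference between genotypes mostly moved by less than 2-fold between the 2 days of sampling. A shift of the second day (CT24 to CT46) against the first (CT0 to CT22) passed at a limma adjusted p under 0.05 for 3263 genes (25.6%), 1628 more positive and 1635 more negative on the second day (12.8% each way), but reached 2-fold for 12 genes (0.094%). Mmp13 differed by -2.74 on the second day, against -3.99 on the first, Sned1, a matrix protein gene, by 1.45, against 0.21, and Lrp4 by 1.35, against 0.32. In the other direction Gpx3 differed by -4.08 on the second day, against -3.19 on the first, and Anxa8 by 6.30, against 7.09. Without the 6 time points 1784 genes passed, 1033 more positive and 751 more negative on the second day, and 5 of those 6 lie on the first day.

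Calls at 37 °C were then set against the other courses. Of 1807 genes called at 37 °C and also tested in the fit over all courses, 1426 were called with the same sign at 32 °C (78.9% of the 37 °C calls and 78.3% of the 32 °C calls), 1336 in AM (73.9% and 73.7%), 1400 in PM (77.5% and 72.6%) and 1116 at 27 °C (61.8% and 67.6%). In all 5 courses 863 were called the same way, 428 higher and 435 lower. Whatever the size, 99.7% of the 1807 genes had the 37 °C sign at 32 °C and 97.3% at 27 °C. Called genes in the other courses were 14.4% at 32 °C, 14.5% in AM, 15.2% in PM and 13.3% at 27 °C.

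Genes whose difference itself differed between temperatures were fewer. Against 32 °C 199 of 13164 genes passed (1.51%), 92 more positive at 37 °C (0.699%) and 107 more negative (0.813%), and against 27 °C 589 passed (4.47%), 220 more positive (1.67%) and 369 more negative (2.8%). The 27 °C course was used without its CT14 libraries, which go against their labels. At 32 °C the gene Gm26377 made up 18.84 to 24.36% of summed FPKM in WT and 23.31 to 34.15% in Bmal1KO libraries. No gene exceeded 2.87% in a 37 °C library. With median-of-ratios scaling 200 genes passed against 32 °C, and the part of Gm26377 was not tested further. Ephx2 differed by 0.17 at 27 °C, 2.03 at 32 °C and 4.92 at 37 °C, and the 37 °C value exceeded that at 27 °C by 4.75. Its mean level was 37.6 FPKM in Bmal1KO and 0.269 FPKM in WT at 37 °C, against 0.13 FPKM in Bmal1KO and 0 FPKM in WT at 27 °C. Aldh1a7 gave 0.40, 1.39 and 4.57 in the same order, and Saa3 0.41, 2.11 and 3.73. These 3 genes differed by at most 0.41 at 27 °C and by 1.39 or more at 32 °C.

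Other differences were more negative at 37 °C than at 27 °C. H19 differed by -1.21 at 27 °C, -6.93 at 32 °C and -6.72 at 37 °C, with mean levels of 1.41 FPKM in Bmal1KO and 4.57 FPKM in WT at 27 °C. Megf6 gave -0.80, -2.89 and -4.69, Col23a1 -1.10, -2.49 and -4.25, and Mmp3 -2.99, -5.63 and -6.11. Fmod, a small proteoglycan, differed by 3.82 at 27 °C, 1.52 at 32 °C and 0.16 at 37 °C, and the calcification inhibitor gene Mgp by 2.57, -0.03 and -0.63. Rgs2, a brake on G protein signals, narrowed instead, with -4.87, -4.66 and -2.09.

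Against the mean of AM and PM, 151 genes passed (1.15%), 51 more positive at 37 °C (0.387%) and 100 more negative (0.76%). What AM and PM mean is not in the labels. Inmt differed by -6.31 at 37 °C, -4.54 in AM and -3.78 in PM, Il1rn, the antagonist of the interleukin 1 receptor, by -4.52, -3.17 and -2.14, and Fbln1 by -3.05, -1.37 and -1.22. Gdf10 was more positive at 37 °C, with 6.48, against 4.96 in AM and 5.40 in PM. Ifi27l2a, an interferon-induced gene, differed by -1.52 at 37 °C, 0.38 in AM and 0.31 in PM.

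**Figure D5:**
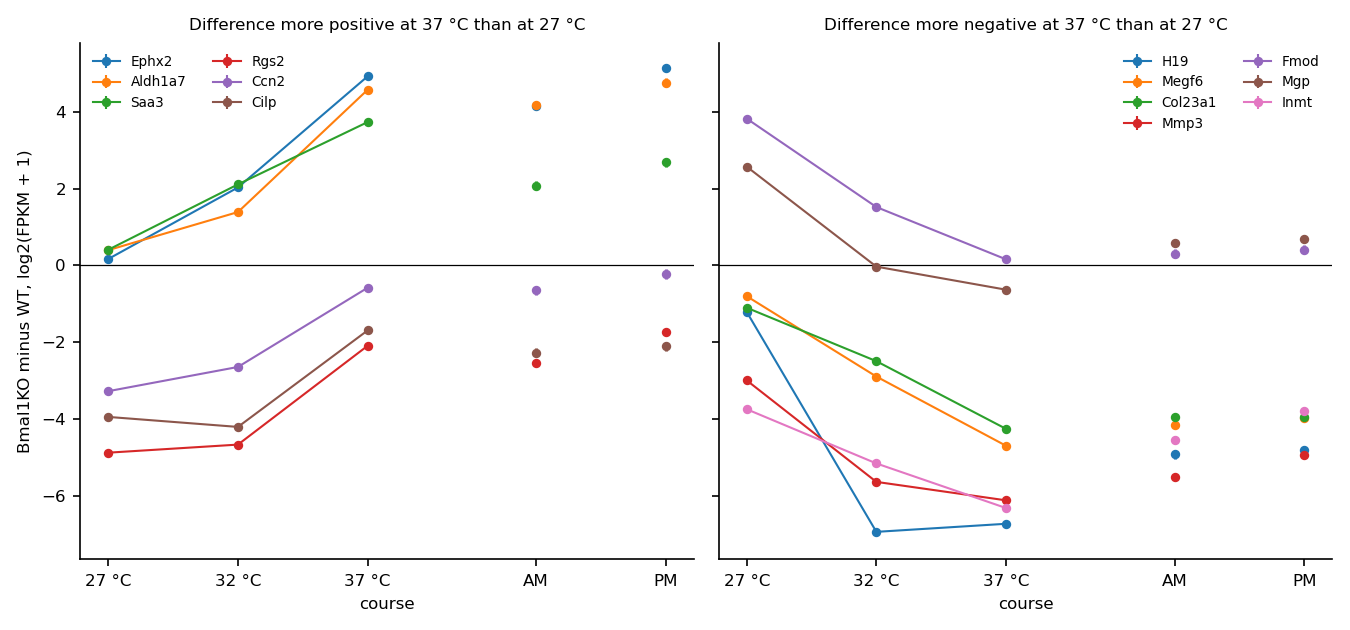
Difference between Bmal1KO and WT, with its SE, at 27, 32 and 37 °C and in AM and PM, on the log2(FPKM + 1) scale, for genes whose difference was more positive (left) or more negative (right) at 37 °C than at 27 °C. Ephx2 lies at 0.17 at 27 °C, 2.03 at 32 °C and 4.92 at 37 °C, and H19 at -1.21, -6.93 and -6.72.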

How the data were processed

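RNA was measured in 48 libraries, 24 of Bmal1KO and 24 of WT fibroblasts at 37 °C, among 212 libraries, and columns were assigned by their names (0 columns were left unused). The authors deposited FPKM values, per the column names, and per the labels' protocols they sequenced poly(A)-selected stranded libraries as 101 nt single reads. The submitters' processing notes name TopHat, TopHat2 2.1.0, Cuffdiff and GRCm38, and neither the annotation nor the scaling is stated there. Of 47631 listed genes 33393 were above 0, and 47217 IDs matched an annotation of the same build. Read counts are not in the files used. Depth was estimated from the FPKM of 1 read in 1357 single-transcript genes (1500 bp or longer, above 0 in 2 to 25% of libraries), where 95.4% of low values lay within 0.15 of whole reads. No counting intervals were given.

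From the deposited FPKM, log2(FPKM + 1) was tested with limma 3.58.1 (R 4.3.3, version 1.17.8 of the data.table package), with lmFit and eBayes with trend, two-sided, Benjamini-Hochberg adjusted, in genes averaging 1 FPKM or more, and with the CT label as a block. Cosine, day and between-course differences were further contrasts. The fits were tried on simulated data with independent noise in each library. Such data cannot check the error rates where neighbouring libraries deviate together. Members, gene lists and tests were chosen with earlier results of these data known. Named are all clock genes and the 15 largest log2 differences per direction without overlap and at least 10 FPKM in the higher genotype. Also named are the 8 called genes per direction with the largest difference in FPKM, up to 5 members per list, and up to 8 genes per direction and further contrast averaging 5 FPKM or more. A gene was left out of the naming if predicted or a pseudogene, not every gene that this rule picks is described, and members given with a difference but no level were chosen after their values were seen. Lists were described by counts and medians, with no set test. Some genes are not reported here.

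Equal CT labels mark equal sampling times. Over 24 pairs the correlation of deviations from the genotype mean lay between -0.13 and 0.33 (median 0.14), above 0.1 in 16, and 2 libraries correlated best with their own CT, and sampling time and shared handling cannot be told apart. Other pseudocounts, filters, scaling, days and left-out time points were tried, and 2 alternatives, leaving out the libraries that stand apart and taking off chromosome medians, were added after seeing the data. Promoters came from RefSeq (GRCm38.p6). Tables and figures were made with Python 3.11.15, pandas 2.3.3, numpy 2.4.6 and matplotlib 3.10.9.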

Additional observations from a re-analysis of the deposited data

Results flagged for a closer look

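The difference between Bmal1KO and WT itself differed between 37 °C and other courses, by a limma contrast of the differences at an adjusted p under 0.05 and 2-fold, in 199 genes against 32 °C, 151 against AM and PM and 589 against 27 °C. Against 32 °C, on the log2(FPKM + 1) scale, it was more positive at 37 °C by 2.90 in Ephx2, 3.17 in Aldh1a7 and 2.57 in Rgs2, and changed by -1.76 in Col23a1 and -1.80 in Megf6. Against AM and PM it changed by 1.30 in Gdf10, 1.36 in Saa3, -1.87 in H19, -2.15 in Inmt, -1.75 in Fbln1, -1.87 in Il1rn and -1.86 in Ifi27l2a. Against 27 °C it changed by 4.75 in Ephx2, 4.17 in Aldh1a7, 3.32 in Saa3 and 2.78 in Rgs2. In the other direction the change against 27 °C was -5.51 in H19, -3.88 in Megf6, -3.66 in Fmod, -3.20 in Mgp, -3.15 in Col23a1 and -3.12 in Mmp3. Between the second and the first day at 37 °C the difference shifted in 3263 genes at an adjusted p under 0.05 (limma). Each temperature is 1 pair of courses, so course and temperature cannot be told apart.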

How the results depend on the processing

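The 1836 genotype calls became 1218 with a filter at a mean of 5 FPKM, where fewer genes were tested, and lay between 1829 and 1850 with any 1 time point left out. They were 2367 with a pseudocount of 0.1 FPKM, 1957 with no filter, 1851 with median-of-ratios scaling (859 higher and 992 lower), 1905 on the first day alone and 1882 on the second. Without the CT label as a replicate block the count was also 1836, and for cosine and day shifts it was 25 and 2736. With 1 library of each genotype per CT label, the block cannot change the genotype difference itself, so the equal count of 1836 is a weak check. The 24 cosine calls became 12 with a pseudocount of 0.1 FPKM, 12 with no filter, 8 at a mean of 5 FPKM, and 9 without the 6 time points of libraries that stand apart, and ranged between 10 (without CT20) and 609 (without CT8) with 1 time point left out. The 3263 day shifts became 1784 without those 6 time points and ranged between 2785 and 3452 with 1 time point left out. With a pseudocount of 0.1 FPKM, 326 genes differed against 32 °C, 320 against AM and PM and 908 against 27 °C, and at a mean of 5 FPKM 119 against 32 °C and 384 against 27 °C. The cause of these moves was not tested. Of 216 genes named with a level, 193 kept direction and call in each setting that tested them, and 189 of the 216 were tested at a mean of 5 FPKM. With chromosome medians taken off 12 called genes fell under 2-fold (Cry2, Eef1a1, Actb, S100a6, Rb1, Cdkn2c, Ccna2, F3, Hsph1, Egr3, Rps24 and Lpl), and 3 of them, Eef1a1, Cdkn2c and Egr3, also did on 1 of the days. In 7 genes that were not called (Npas2, Tyms, Mcm3, Mcm6, Rrm1, Ccn1 and H2-T23) the difference reached 2-fold in some setting. The sign turned in 4 genes that were not called. Arntl was 0.01 on the second day, 0.01 without the 6 time points and 0.07 with chromosome medians taken off. Rora was 0.02 on the second day, 0.02 with the other scaling, 0.05 without the 6 time points and between -0.01 and 0.02 with 1 time point left out. Nfil3 was 0.09 with chromosome medians taken off and Acta2 0.03 on the first day. No read counts were used, so depth limits for single low genes are not given.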
